A study of Homo sapiens with 14 samples.

Results

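The genes described here are 10 components of the Notch pathway, chosen by symbol in both expression tables of the series. They are the receptors NOTCH1, NOTCH2 and NOTCH3, the ligands JAG1, JAG2 and DLL3, and the target repressors HES1, HES4, HES7 and HEY1. All 10 were present among the 24199 features of the DU145 table and among the 44591 genes of the LNCaP table. The study asked how the transcription factor PAX6 takes part in the shift of prostate cancer cells towards a neuroendocrine state, and its RNA-seq compared DU145 cells with and without a PAX6 knockdown and LNCaP cells with and without prolonged enzalutamide, an antiandrogen drug.

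DU145 is an established human prostate cancer cell line that grows without androgen, and LNCaP is an established androgen-responsive line. The 3 DU145 shCON libraries came from cells carrying a non-target hairpin, and the 3 DU145 shPAX6 libraries from cells carrying a hairpin against PAX6. Both were stable, puromycin-selected lentiviral lines, so both carried a vector and had passed through selection. The study lists more than one PAX6 hairpin, and the labels do not say which of them each library carries. LNCaP control and LNCaP ENZ had 1 library each, and the ENZ cells had been kept in 20 µM enzalutamide for 30 days. The paper describes its LNCaP ENZ cells as a resistant subline obtained by selection during long culture with the drug. No label states that the libraries of one group came from separate cultures, so p-values measure the spread between these libraries, which may be technical. The series also holds 6 ATAC samples, which are not analysed here.

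Notch signalling passes between touching cells. A Jagged or Delta ligand on one cell pulls on a Notch receptor on its neighbour, proteases release the intracellular part of the receptor, and that part joins RBPJ on DNA with a Mastermind co-activator to switch on HES and HEY genes. HES and HEY proteins are basic helix-loop-helix repressors that hold down proneural factors. DLL3 differs from the other ligands in that it acts mainly inside the cell as an inhibitor of Notch, and it is known as a surface antigen of neuroendocrine tumours.

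The upstream sequences of 3 repressors are shown because each of them led the repressors by level in one of the cell lines or stood next to the leader. Each is the run of 250 bases that ends just before the RefSeq start, written 5′ to 3′ on the gene's own strand, with coordinates of GRCh38.p14. The RefSeq promoter table held 8 of the 10 genes. Capitals mark matches, on either strand, to the RBPJ core GTGGGAA and to the N box CACNAG, the site that HES proteins favour.

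HES1, chr3:194135898-194136147, plus strand: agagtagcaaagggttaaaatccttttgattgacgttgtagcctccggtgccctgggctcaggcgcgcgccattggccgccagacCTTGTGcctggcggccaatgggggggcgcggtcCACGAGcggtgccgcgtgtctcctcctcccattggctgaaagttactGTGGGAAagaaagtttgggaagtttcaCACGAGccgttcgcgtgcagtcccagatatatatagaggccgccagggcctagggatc
HES4, chr1:1000098-1000347, minus strand: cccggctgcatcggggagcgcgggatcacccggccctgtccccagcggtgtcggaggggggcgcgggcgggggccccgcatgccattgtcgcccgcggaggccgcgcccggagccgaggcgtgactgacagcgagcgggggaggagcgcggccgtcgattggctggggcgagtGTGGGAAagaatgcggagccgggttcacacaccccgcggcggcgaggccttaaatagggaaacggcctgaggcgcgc
HES7, chr17:8124107-8124356, minus strand: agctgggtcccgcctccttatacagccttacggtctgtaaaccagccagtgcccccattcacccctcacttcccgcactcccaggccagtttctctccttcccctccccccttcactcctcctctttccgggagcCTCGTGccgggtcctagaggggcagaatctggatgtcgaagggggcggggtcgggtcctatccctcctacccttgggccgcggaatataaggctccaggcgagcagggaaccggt

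The HES1 and HES4 windows each held 1 RBPJ core, beginning 85 bases before the start in HES1 and 77 bases before it in HES4. The HES7 window held 0 of these cores and 1 N box, and the HES1 window held 3 N boxes. Among 27303 RefSeq windows of the same length, 5.46% held the RBPJ core and 32.0% held an N box. Among the receptor and ligand windows, the only match to either motif was 1 N box in that of NOTCH3. The E box CACGTG, found in 6.49% of windows, was in 0 of the 8. These matches describe letters in these windows and say nothing about binding.

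Across the whole DU145 table, 163 of 13574 tested features passed the threshold, an adjusted p under 0.05 in limma with Benjamini-Hochberg adjustment. Of these, 24 were higher and 139 lower in shPAX6, and log2 fold changes over the tested features had a median of −0.12. PAX6 itself was at 0.839, 1.23 and 1.57 FPKM (fragments scaled by transcript length and sequencing depth) in shCON and at 0.0153, 0.274 and 0.0778 FPKM in shPAX6, with a log2 fold change of −2.69 and an adjusted p of 0.0539 (limma). The sum of FPKM per library ran from 448901 to 570790, which is no measure of depth, and the depth of these libraries is unknown. Epithelial keratins were high, with KRT8 between 635 and 993 FPKM. The leukocyte genes PTPRC and CD3E were at 0 in all 6 libraries, as were the fibroblast genes COL1A2 and DCN. The shPAX6 libraries 1 and 2 stood apart from each other by transcript length. Across 12009 features, deviations from the gene mean had a Spearman rho with length of −0.54 in shPAX6 library 1 and 0.56 in shPAX6 library 2, against −0.20 to 0.24 in the shCON libraries. With transcript GC content, rho was −0.61 in shPAX6 library 2 and 0.52 in shCON library 2. Without shPAX6 library 1 or library 2, 6.78% and 6.65% of all tested features passed, against 1.2% with all libraries.

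In shPAX6 cells, HES7 was about 2.57-fold higher than in shCON cells and was the only one of the 8 tested Notch genes to pass the threshold. NOTCH3 was 3.99-fold and JAG2 1.81-fold lower by group means, but neither passed. The background share of 1.2% over all tested features divided into 0.177% for those higher and 1.02% for those lower. Of the 10 genes, 8 passed the filter of a mean of at least 0.5 FPKM, and JAG1 and HEY1 did not. Groups that did not overlap were found for 4 of the 8 (HES7 higher, and NOTCH3, JAG2 and HES1 lower), beside 26.7% of all tested features. By unadjusted p under 0.05, 1 gene was higher (HES7) and 3 were lower (NOTCH3, JAG2 and DLL3), beside 18.3% of all tested features. The 8 tested genes had a median log2 fold change of −0.72 beside −0.12 over all features, with 1 higher and 7 lower. Over all features the log2 fold change fell with transcript GC content (Spearman rho −0.36). With each library corrected for GC content, the 2 medians were −0.44 and −0.14. These RNA levels are averages over each culture, in which fewer expressing cells and less RNA per cell cannot be told apart.

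**Figure D1:**
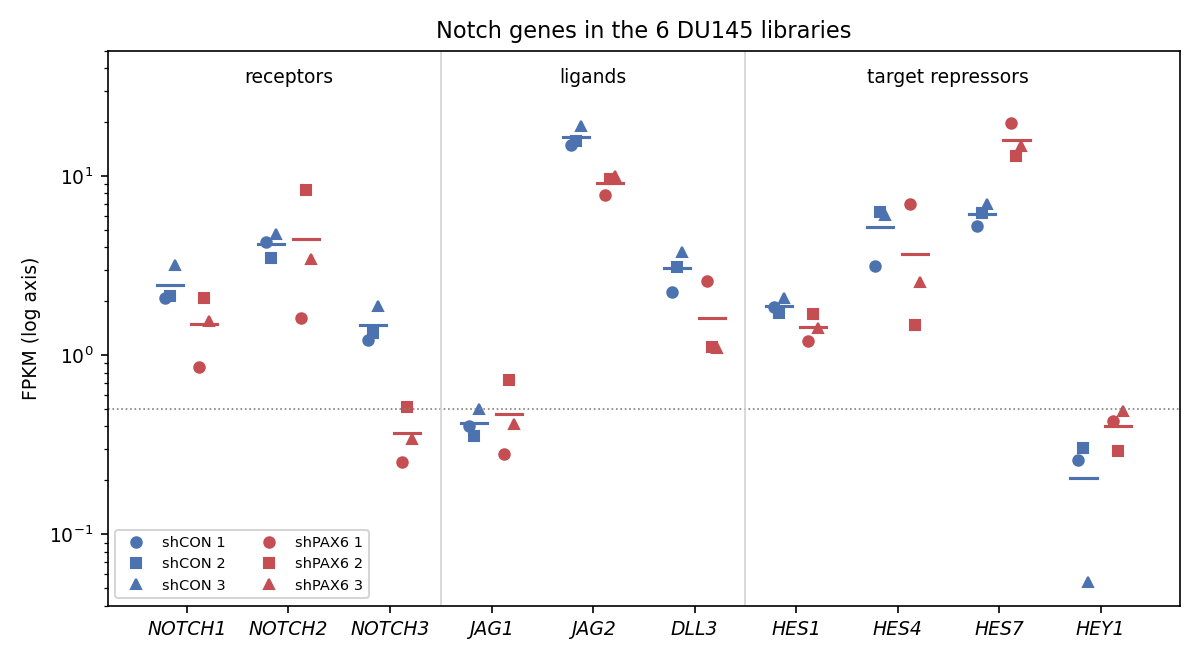
FPKM of each Notch gene in every DU145 library, on a log axis, with shCON in blue, shPAX6 in red, a bar at each group mean and a dotted line at the filter of 0.5 FPKM. HES7 stands above shCON in all 3 shPAX6 libraries, and NOTCH3 and JAG2 stand below it.

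Levels in DU145 can be ranked within the table, since FPKM is a value per transcript length. In shCON cells the order of mean levels was JAG2, HES7, HES4, NOTCH2, DLL3, NOTCH1, HES1, NOTCH3, JAG1 and HEY1. JAG2 exceeded 67.9% of the tested features in mean shCON level, and NOTCH3 exceeded 16.7%. Only 3 pairs of neighbours in this order had ranges over the libraries that did not overlap, namely JAG2 above HES7, NOTCH3 above JAG1, and JAG1 above HEY1. In shPAX6 cells HES7 came first, with its lowest library at 13.0 FPKM above the highest JAG2 library at 9.94 FPKM. NOTCH3 came last in shPAX6, although its range overlapped those of HEY1 and JAG1.

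NOTCH3 is a receptor best known from vascular smooth muscle and is encoded at chr19:15270444-15311792 on the minus strand of GRCh37. Its level was 1.21, 1.32 and 1.88 FPKM in shCON cells and stood at 0.252, 0.511 and 0.342 FPKM in shPAX6 cells. Every shPAX6 library lay below every shCON library. The mean was 1.47 ± 0.357 FPKM in shCON and 0.368 ± 0.132 FPKM in shPAX6 (SD, n = 3 each). On the log2 scale the difference was −1.76 with a standard error of 0.32, computed from log2(FPKM + 0.1), which understates changes of low genes. The unadjusted p was 0.000741 and the adjusted p 0.0547 (limma with Benjamini-Hochberg adjustment), which missed the threshold. The adjusted p was 0.0269 without shPAX6 library 1 and 0.0213 without shPAX6 library 2, the fits in which more features passed over the whole table, and it ran from 0.22 to 0.331 without any other library (limma). With the GC correction it was 0.112, while the fold change stayed negative under all 17 alternatives that tested it. NOTCH3 left the test with a filter of 1 FPKM.

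NOTCH1 and NOTCH2, the more widely expressed receptors, had overlapping groups. A microRNA gene and a long non-coding RNA gene overlap the NOTCH1 locus, the second on the opposite strand. NOTCH1 was at 2.08, 2.15 and 3.18 FPKM in shCON and at 0.855, 2.10 and 1.55 FPKM in shPAX6. The second shPAX6 library lay within the shCON range, and the other two lay below it. For NOTCH1 the log2 fold change was −0.74 with a standard error of 0.35 and an adjusted p of 0.321 (limma, Benjamini-Hochberg). It was −0.41 without shPAX6 library 1 and −1.01 without shPAX6 library 2, and neither passed.

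NOTCH2 was at 4.29, 3.50 and 4.74 FPKM in shCON and spread from 1.62 FPKM in shPAX6 library 1 to 8.33 FPKM in library 2, with 3.43 FPKM in library 3. The shPAX6 range enclosed the whole shCON range. Its log2 fold change of −0.19 had a standard error of 0.52 and an adjusted p of 0.89 (limma, Benjamini-Hochberg), and it turned to 0.36 without shPAX6 library 1 and to −0.79 without library 2. The NOTCH2 transcript is 11425 bases long, the longest of the 10, and the 2 libraries at its extremes are those that stand apart by transcript length. With each library corrected for length, the log2 fold change was −0.22 with a standard error of 0.32. Reads of NOTCH2 can also be shared with its near-identical paralog NOTCH2NLA, which was at 9.30 ± 0.508 FPKM in shCON and 13.7 ± 2.85 FPKM in shPAX6 (SD, n = 3 each), so both levels are uncertain.

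Within the summed level of the 3 receptors, NOTCH3 made up 15.9% to 19.2% in the shCON libraries and 4.68% to 9.26% in the shPAX6 libraries. NOTCH2 made up 48.4% to 56.6% and 59.3% to 76.2%, respectively. The highest of these, 76.2%, was in shPAX6 library 2, which stood apart by transcript length. The NOTCH2 shares rest on its uncertain level, with a log2 fold change of −0.19 and a standard error of 0.52. They also rest on the lower NOTCH3 level. No share was corrected for length or GC content, and the part these play was not tested. NOTCH1 shares overlapped between the groups. The sum itself ran from 6.97 to 9.79 FPKM in shCON and from 2.72 to 10.9 FPKM in shPAX6, and so did not separate them.

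**Figure D2:**
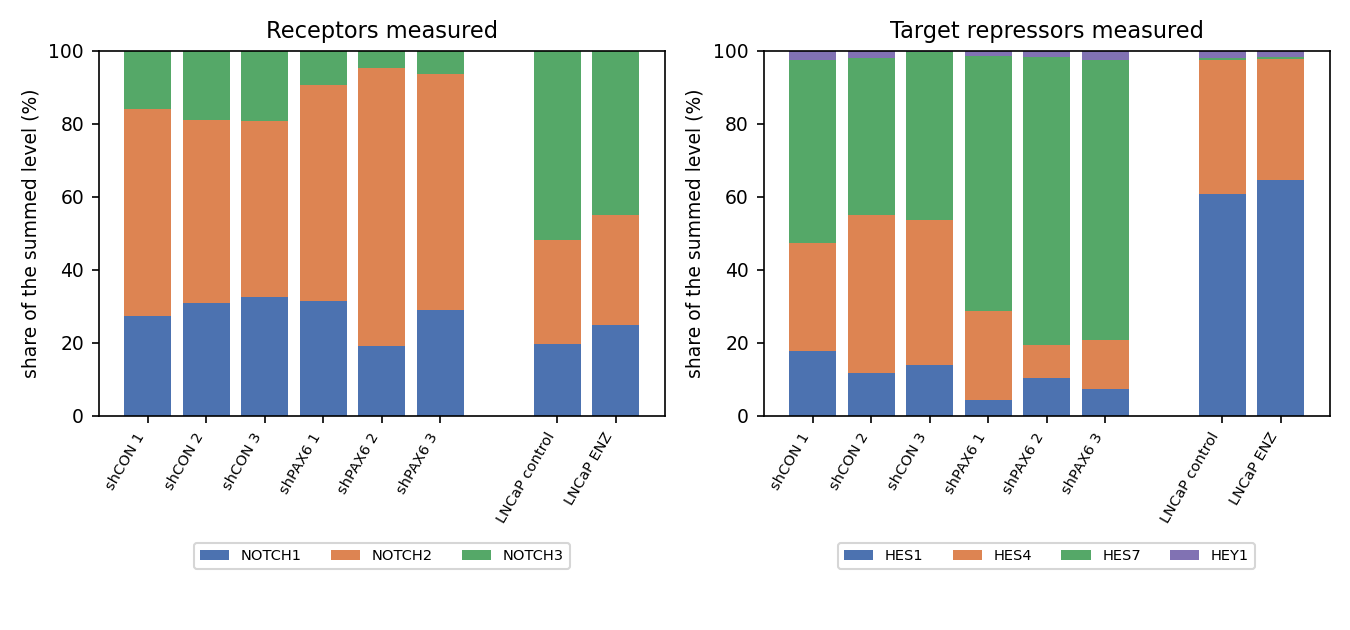
Share of each gene, in percent, of the summed level of the 3 receptors (left) and of the 4 target repressors (right) in each library, from FPKM in DU145 and from TPM in LNCaP, which were normalized separately. HES7 takes 69.7% to 79.0% of the sum of these 4 repressors in shPAX6, and HES1 and HES4 take nearly all of it in LNCaP. Other HES and HEY genes, HES6 among them, are left out of the sum.

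JAG2, a Jagged ligand encoded at chr14:105607318-105635161 on the minus strand of GRCh37, was the most abundant ligand in every DU145 library. It was at 14.9, 15.7 and 19.0 FPKM in shCON and at 7.82, 9.66 and 9.94 FPKM in shPAX6. The groups did not overlap, and the lowest shCON library was above the highest shPAX6 library by more than either group's own SD. The means were 16.5 ± 2.21 and 9.14 ± 1.15 FPKM (SD, n = 3 each). This was a log2 fold change of −0.85 with a standard error of 0.17, an unadjusted p of 0.00123 and an adjusted p of 0.0642 (limma, Benjamini-Hochberg). Leaving out shPAX6 library 1 or 2 gave an adjusted p of 0.0272 or 0.0338, and leaving out any other library gave 0.22 to 0.37 (limma). With the GC correction the log2 fold change was −0.62 (adjusted p 0.264, limma). A long non-coding RNA gene on the same strand overlaps part of the JAG2 locus, and reads in the overlap cannot be told apart.

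DLL3, the inhibitory ligand, was at 2.26, 3.12 and 3.79 FPKM in shCON and at 2.61, 1.11 and 1.10 FPKM in shPAX6. The last 2 shPAX6 libraries lay below every shCON library, and the first lay within the shCON range. Over all libraries the log2 fold change of −0.97 did not pass (adjusted p 0.231, limma with Benjamini-Hochberg adjustment). Without shPAX6 library 1 it was −1.36 with an adjusted p of 0.0233 (limma), so that the call turned on this library.

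JAG1, the other Jagged ligand, was at 0.404, 0.354 and 0.501 FPKM in shCON and at 0.279, 0.723 and 0.415 FPKM in shPAX6, under the filter and with overlapping groups. The 3 ligands summed to 17.6 to 23.3 FPKM in shCON and to 10.7 to 11.5 FPKM in shPAX6, with no overlap. JAG2 made up 81.6% to 84.8% of that sum in shCON and 73.0% to 86.8% in shPAX6.

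HES7, the repressor known for the segmentation clock of the embryo, is encoded at chr17:8023908-8027410 on the minus strand of GRCh37. It was at 5.29, 6.24 and 6.97 FPKM in shCON and at 19.9, 13.0 and 14.7 FPKM in shPAX6. All 3 shPAX6 libraries lay above all 3 shCON libraries, and single-library ratios between the groups ran from 1.86 to 3.75. The fitted log2 fold change of 1.33 had a standard error of 0.20 and an unadjusted p of 0.000242 (limma). Over 18 alternatives the log2 fold change ran from 1.16 to 1.55, and the adjusted p ran from 0.00494 to 0.224 with 10 of the 18 past the threshold (limma, Benjamini-Hochberg). After correcting each library for transcript GC content the log2 fold change was 1.55 (adjusted p 0.00494, limma), and after correcting for length it was 1.25 (adjusted p 0.0105). The adjusted p was 0.191, 0.224 and 0.22 without shCON library 1, 2 or 3, and 0.194 without shPAX6 library 3 (limma), while the direction stayed the same. In those 4 fits 0 to 10 features of the whole table passed, or 0.0368% without shCON library 2 and 0.0737% without shPAX6 library 3. The adjusted p of HES7 was 0.00989 without shPAX6 library 1 and 0.0121 without shPAX6 library 2 (limma), with log2 fold changes of 1.16 and 1.47.

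**Figure D3:**
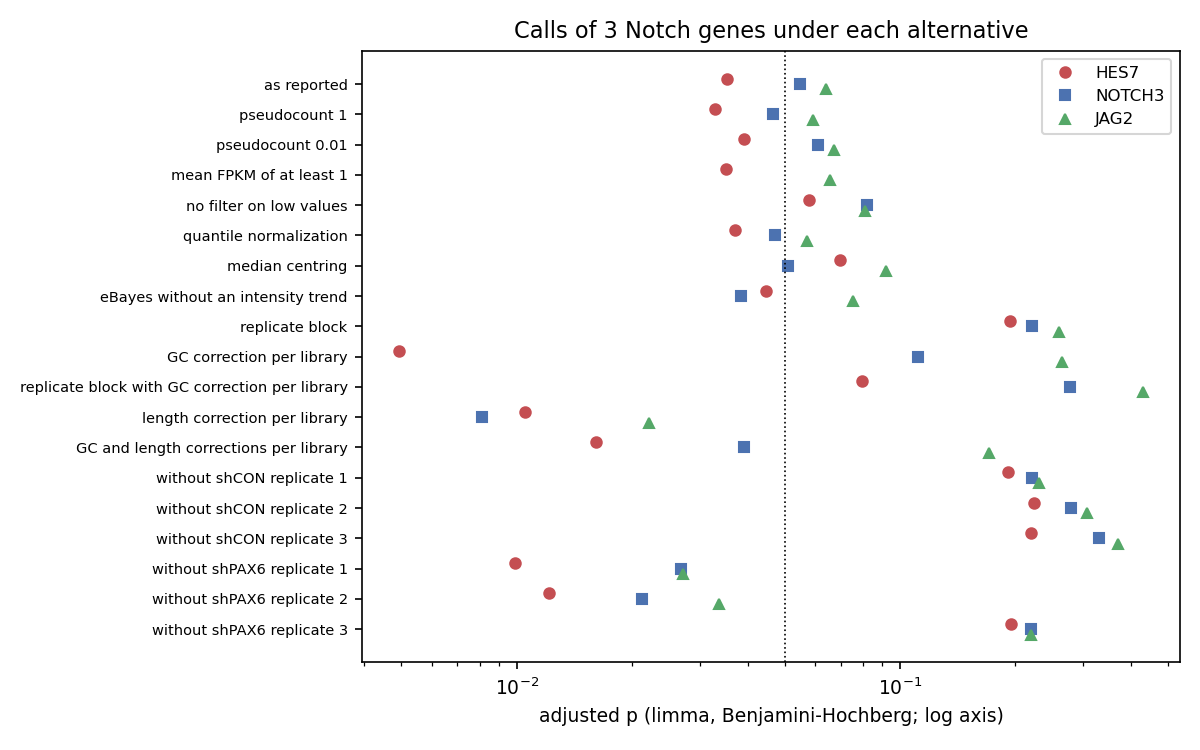
Adjusted p (limma, Benjamini-Hochberg, log axis) of HES7, NOTCH3 and JAG2 in the fit as reported and under each alternative, with a dotted line at the threshold of 0.05. HES7 lies left of the line in 10 of 18 alternatives, NOTCH3 in 7 of 17 and JAG2 in 3 of 18.

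HES1 and HES4, the repressors whose windows held the RBPJ core, did not pass the test in either direction. HES1, the most widely used Notch target, was at 1.86, 1.71 and 2.10 FPKM in shCON and at 1.21, 1.69 and 1.42 FPKM in shPAX6. Its groups did not overlap, but the gap between the nearest libraries was small. The log2 fold change was −0.38 with a standard error of 0.23 and an adjusted p of 0.44 (limma, Benjamini-Hochberg).

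HES4 was at 3.14, 6.32 and 6.05 FPKM in shCON and at 6.98, 1.48 and 2.57 FPKM in shPAX6. Library 1 was the lowest in shCON and the highest in shPAX6, and the groups overlapped. The log2 fold change of −0.70 had a standard error of 0.54 and an adjusted p of 0.56 (limma, Benjamini-Hochberg). Without shPAX6 library 1 it was −1.30 (adjusted p 0.0624, limma), and without shPAX6 library 2 it was −0.21. The HES4 transcript has a GC content of 73.9%, the highest of the 10. With each library corrected for GC content, the log2 fold change was −0.26 with a standard error of 0.18.

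HEY1, a repressor of the related HEY family, was at 0.258, 0.302 and 0.0542 FPKM in shCON and at 0.430, 0.292 and 0.490 FPKM in shPAX6. It stayed under the filter, and the groups overlapped by 1 library. The 4 repressors together summed to 10.6 to 15.2 FPKM in shCON and to 16.4 to 28.5 FPKM in shPAX6, without overlap. HES7 accounted for 42.8% to 50.1% of this sum in shCON and for 69.7% to 79.0% in shPAX6. The 6 other HES and HEY genes of the pathway, among them HES6 and HEYL, are not in this sum. They summed to 8.54 to 10.5 FPKM in shCON and to 6.83 to 10.4 FPKM in shPAX6. The separation and the HES7 share therefore apply to the 4 listed repressors only.

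Over the other genes of the pathway, a list of 48 taken whole, 34 were tested. Of these, 0 passed the threshold in limma, and 6 had an unadjusted p under 0.05, all lower in shPAX6, a share near the 18.3% of all tested features. The median log2 fold change of the 34 was −0.28, with 6 higher and 28 lower, and 9 had groups that did not overlap, all of them lower, or 26.5% beside 26.7% of all features. The lowest was TLE4, a Groucho-family corepressor that HES proteins recruit, at −0.98 (adjusted p 0.136, limma), followed by the co-activator MAML1 at −0.76 (adjusted p 0.229, limma). The highest was the non-canonical ligand DLK2 at 0.44, with overlapping groups. Without shPAX6 library 1, TLE2 and DTX2 passed, and without shPAX6 library 2, MAML1 and TLE4 passed, so that 2 genes were called in either case, a share no higher than the 6.78% and 6.65% of all features called in those fits.

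**Figure D4:**
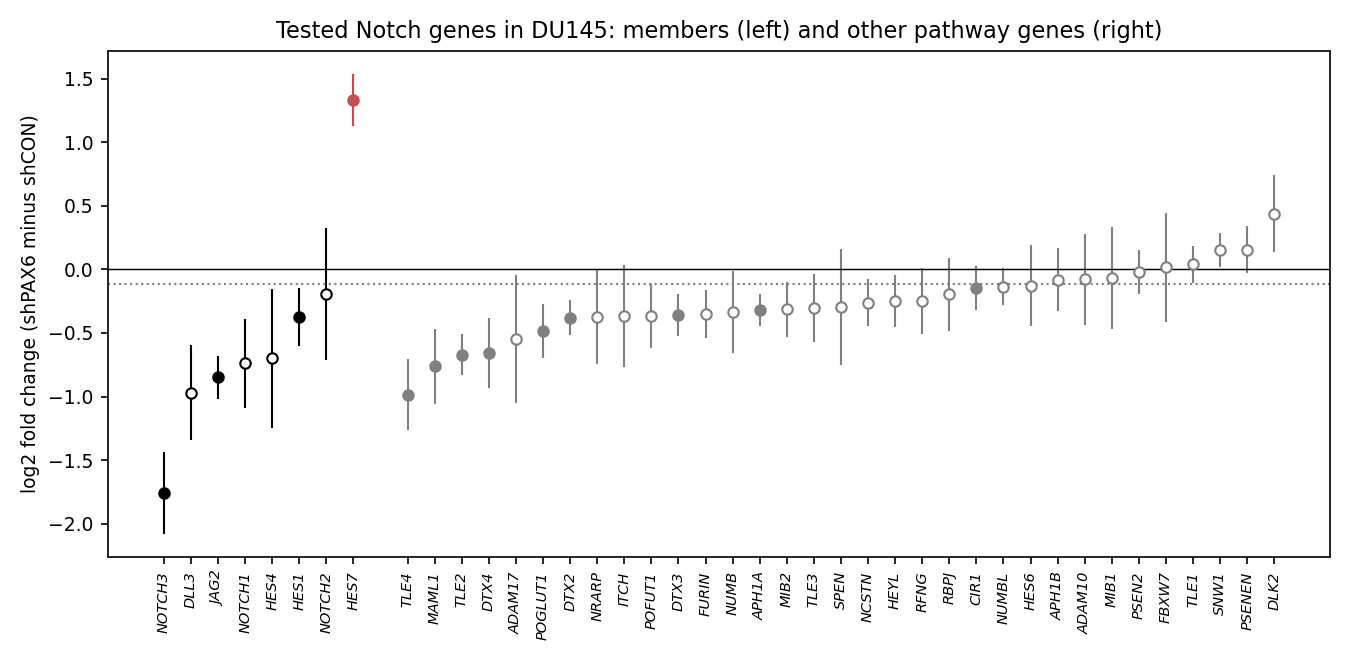
Log2 fold change (shPAX6 minus shCON) with its standard error for the 8 tested Notch genes on the left and the other tested pathway genes reported here on the right. Filled points mark groups that did not overlap, red marks an adjusted p under 0.05 (limma), the solid line is 0 and the dotted line is the median of all features at −0.12. HES7 at 1.33 is the only red point, and NOTCH3 at −1.76 is the lowest.

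The core machinery was detected in both DU145 groups. All 9 protease-list genes passed the filter. The highest of them was APH1A, a subunit of the receptor-cutting γ-secretase complex. It was at 134 to 144 FPKM in shCON and 99.9 to 123 FPKM in shPAX6. The APH1A groups did not overlap, and the adjusted p was 0.25 (limma). RBPJ, the DNA-binding partner of the receptor, was at 6.85 ± 1.82 FPKM in shCON and 5.99 ± 1.81 FPKM in shPAX6 (SD, n = 3 each), with overlapping groups. The other ligands DLL1 and DLL4 did not exceed 0.2 FPKM in any library, and DLK1 was listed at 0 in all 6. Among other repressors, HES6 was at 5.56 ± 0.643 and 5.39 ± 2.21 FPKM and HEYL at 3.76 ± 0.358 and 3.17 ± 0.504 FPKM (SD, n = 3 each), with overlapping groups, while HES3 was listed at 0 in all 6 libraries.

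In LNCaP the 10 genes formed another profile. The control library held 20468001 counts and the ENZ library 17945722 counts, and all 10 genes had counts in both. With 1 library per arm no difference between the conditions could be tested, and the intervals given are exact 95% Clopper-Pearson intervals from the split of the counts, covering counting error only. By TPM (counts scaled by gene length and then to a common total), the control order was NOTCH3 at 36.1, HES1 at 30.3, NOTCH2 at 19.9, JAG2 at 19.1, HES4 at 18.2, NOTCH1 at 13.8, JAG1 at 4.74, DLL3 at 3.47, HEY1 at 1.01 and HES7 at 0.273. NOTCH3, near the end of the order in DU145, thus led in LNCaP, and HES7, at or next to the top in DU145, came last. The 2 tables were made separately, so only the orders within each table are set side by side. LNCaP cells carried KLK3, which encodes prostate-specific antigen, at 1817 and 1186 counts.

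JAG1 was the 1 gene of the 10 past 2-fold, taken at a mean of at least 1 CPM (counts scaled by the library total). It had 557 counts in the control and 194 in the ENZ library, or 27.2 and 10.8 CPM. The ENZ library was 2.52-fold lower, with a log2 ratio of −1.32 (95% interval −1.58 to −1.09). Over all 14767 genes at that level, 11.4% were past 2-fold, 1.84% higher and 9.57% lower, so a single gene of 9 is near the background. JAG1 is encoded at chr20:10618332-10654694 on the minus strand of GRCh37, and a long non-coding RNA gene overlaps it on the opposite strand.

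JAG2 differed in the other direction. It had 2187 counts in the control and 3013 in the ENZ library, 107 and 168 CPM. It was 1.57-fold higher in the ENZ library (log2 ratio 0.65, 95% interval 0.57 to 0.73). Over 6 alternative settings its log2 ratio ran from 0.56 to 0.81, beyond this interval. For DLL3, 162 and 190 counts gave 0.42 (0.11 to 0.73). JAG1 made up 17.4% of the summed ligand TPM in the control and 5.16% in the ENZ library, whereas JAG2 made up 69.9% and 82.2%.

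All 3 receptors had a lower CPM in the ENZ library than in the control library. For NOTCH3, 5710 counts in the control and 3171 in the ENZ library gave a log2 ratio of −0.66 (95% interval −0.72 to −0.60). For NOTCH2, 4610 and 3127 counts gave −0.37 (−0.44 to −0.30), and its paralog NOTCH2NL had 674 and 434. Over 6 alternative settings NOTCH3 ran from −0.74 to −0.50 and NOTCH2 from −0.45 to −0.22, beyond these intervals. For NOTCH1, with 2510 and 2021 counts, the ratio of −0.12 (−0.21 to −0.04) was close to the median of −0.15 over all expressed genes and turned positive under 2 of the scalings. The NOTCH3 share of the receptor TPM was 51.8% in the control and 44.9% in the ENZ library.

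Among the repressors, HES4 showed a log2 ratio of −0.34 (95% interval −0.57 to −0.11) from 372 and 258 counts. This interval held the median of −0.15 over all expressed genes, and the ratio was −0.18 with that median set to 0. For HES1, with 867 and 707 counts, the interval of −0.25 to 0.04 held 0. Its ratio turned positive under the same 2 scalings as that of NOTCH1. HEY1 had 51 and 32 counts and an interval of −1.17 to 0.18. HES7 had 9 and 7 counts, and its interval of −1.83 to 1.42 shows that a change of 2-fold either way was not detectable at this depth.

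**Figure D5:**
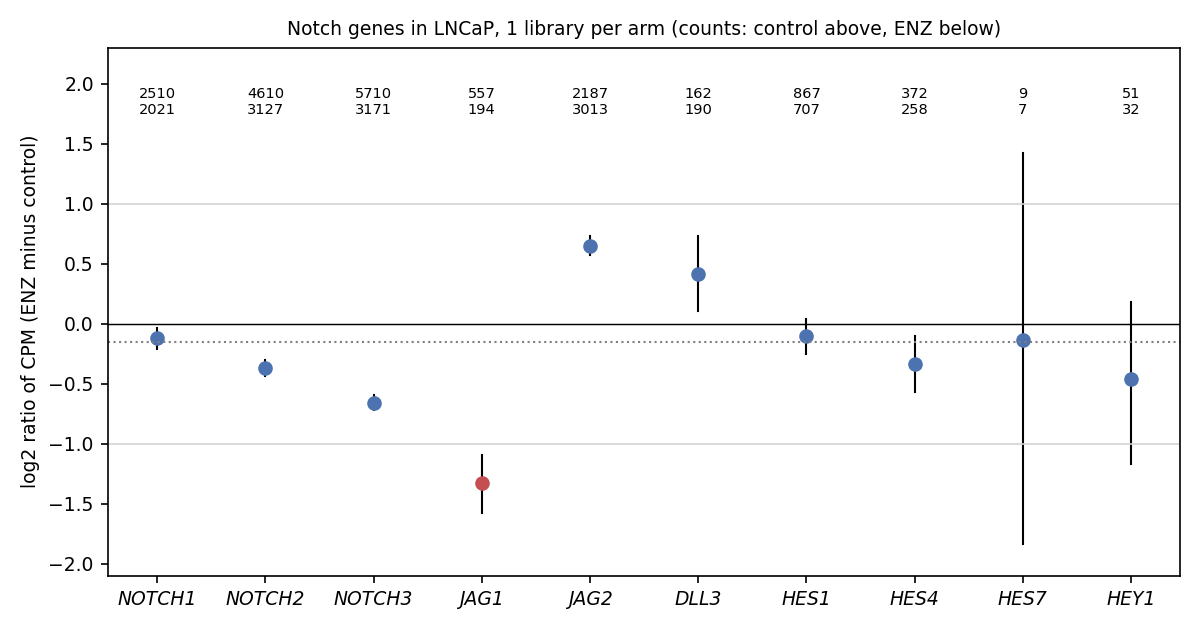
Log2 ratio of CPM (ENZ minus control) of the 10 Notch genes in LNCaP with 95% intervals for counting error only, and the counts of the control (upper) and ENZ (lower) library above each point. The dotted line is the median of all expressed genes at −0.15 and grey lines mark 2-fold. JAG1 at −1.32 is the only gene past 2-fold, and JAG2 at 0.65 is the highest.

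Of the other pathway genes, 39 of 48 reached the level for a ratio in LNCaP, and 7 were past 2-fold, 6 lower and 1 higher, beside 11.4% of all genes (9.57% lower and 1.84% higher). Their median of −0.15 equalled that over all genes to this precision. HEY2, a HEY repressor, had 61 and 4 counts (log2 ratio −3.25, 95% interval −5.66 to −2.31). Without the 0.1 CPM added for the log2 ratio, which the interval does not use, HEY2 was 13.4-fold lower in the ENZ library. HES6, which is known to oppose HES1, had 1201 and 388 counts (−1.44, −1.61 to −1.27). By TPM, HES6 was at 42.1 in the control and 14.6 in the ENZ library, beside 30.3 and 26.5 for HES1. The sheddase ADAM10, which makes the first cut of an engaged receptor, had 1785 and 694 counts (−1.17, −1.30 to −1.05).

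The remaining genes past 2-fold act in ligand endocytosis, receptor turnover and corepression. The ubiquitin ligases MIB1 and NEURL1, which drive ligand endocytosis, had 963 and 345 counts and 153 and 31 counts. CIR1, a corepressor of RBPJ, had 129 and 48 counts. DTX3 was the one higher gene, with 14 and 34 counts (log2 ratio 1.35, 95% interval 0.53 to 2.48). With a pseudocount of 1 CPM, DTX3 and CIR1 were no longer past 2-fold, and with TMM factors or the median ratio set to 0 the receptor NOTCH4, with 34 and 59 counts, joined DTX3.

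Set side by side, NOTCH3 was lower in shPAX6 than in shCON in DU145 and lower in ENZ than in control in LNCaP, at log2 values of −1.76 and −0.66. JAG2 was lower in the first comparison and higher in the second, at −0.85 and 0.65. Neither gene passed the threshold in DU145 (adjusted p 0.0547 for NOTCH3 and 0.0642 for JAG2, limma), and LNCaP had 1 library per arm. The 2 comparisons share no libraries, and the difference between them was not tested. PAX6 in LNCaP had 11 and 4 counts (95% interval of its log2 ratio −3.38 to 0.49), so that no direction was detectable at this depth.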

How the data were processed

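RNA-seq was analysed in 8 libraries. The DU145 table was deposited with values that the authors made with HISAT2 and StringTie on GRCh37, and these were read as FPKM, although the header names no unit. The LNCaP table was deposited by the authors with raw counts and TPM per gene, and its 2 library totals set the counting error. All numeric columns were mapped to samples (0 unmapped).

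Groups follow the sample labels. DU145 values were tested with limma 3.58.1 in R 4.3.3 on log2(FPKM + 0.1) over the 13574 features whose mean reached 0.5 FPKM, two-sided, with an intensity trend and Benjamini-Hochberg adjustment over all of them (threshold 0.05). The study's methods name a count model, which these values do not allow. LNCaP log2 ratios used CPM + 0.1. Their intervals used the counts with nothing added, so ratio and interval are on different scales where counts are low. A floor of 3 counts served only to mark low genes and entered neither. For an alternative, edgeR 4.0.16 gave TMM factors. The deposited values carry no record of strand use in counting.

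Named genes were all 10 members, PAX6, other pathway genes past a threshold or the 2 most changed in each direction, and the 5 genes most like HES7 in DU145; some genes of the lists are not reported here. The members and lists were chosen with earlier results of these data known. Alternatives covered pseudocounts, filters, scalings, the replicate number as a block, GC content, each library left out and, chosen after seeing the data, transcript length.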

Additional observations from a re-analysis of the deposited data

How the results depend on the processing

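In DU145 the number of Notch genes called (1, HES7) was 2 with a pseudocount of 1, quantile normalization, no intensity trend or GC and length corrections, 3 with a length correction, and 0 with no filter or median centring. It ran from 0 to 4 with 1 library left out, and that of the other pathway genes from 0 to 2, and also 2 with the length correction. With 1 library left out NOTCH2 ran from −0.79 to 0.36, positive without shPAX6 replicate 1. Over all features the 163 calls became 108 with no filter, 100 with median centring (28 higher, 72 lower), 236 with quantile normalization (74 higher, 162 lower), 697 with the length correction and 268 with both corrections, and ran from 0 to 920 with 1 library left out. Median centring moved the median of all features from −0.12 to 0.06 and quantile normalization moved it to 0.01. HES7 missed the threshold with no filter (adjusted p 0.0579, limma) and with median centring (0.0697). The causes were not tested. The length corrections were chosen after seeing the data.

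Replicate numbers did not pair the DU145 libraries: deviations of same-numbered libraries had correlations of −0.17, −0.37 and 0.05, and 1 of 6 libraries correlated best with its own number. With the replicate block, 0 Notch genes and 0 features were called, and with the block and the GC correction 0 and 5.

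In LNCaP, JAG1 was the 1 Notch gene past 2-fold under all 7 alternatives, and the 7 other pathway genes became 5 with a pseudocount of 1, 8 with TMM factors or the median set to 0, and 9 with no filter. All genes past 2-fold numbered 1684, but 1054 with a pseudocount of 1 and 6120 with no filter, and the split of 271 higher and 1413 lower became 400 and 982 with TMM factors and 417 and 952 with the median ratio set to 0. NOTCH1 turned to 0.0234 with TMM factors and to 0.0315 with the median set to 0. NOTCH2, NOTCH3 and JAG2 each moved outside their counting intervals under 3 of 6 alternatives, with their directions unchanged. The 1 library per arm and the unknown depth in DU145 limit what these values can show.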

Other observations

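Proneural factors, which HES proteins repress, were nearly silent in DU145. NEUROD1 and NEUROG3 were listed at 0 in all 6 libraries, and the 5 proneural factors listed summed to no more than 0.0664 FPKM in any library. Of 10 proneural and neuroendocrine genes only ENO2, a neuronal enolase, passed the filter, at 22.7 ± 1.46 FPKM in shCON and 29.1 ± 4.31 FPKM in shPAX6 (SD, n = 3 each; adjusted p 0.285, limma with Benjamini-Hochberg adjustment).

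The 5 tested genes whose log2 levels followed HES7 most closely over the 6 DU145 libraries were ID2, CTHRC1, KRTAP2-3, JDP2 and MAP2K3, with Pearson r from 0.988 to 0.995. The points share their libraries and the shift between the 2 groups, so the values are a description. ID2, an inhibitor of basic helix-loop-helix factors, went from 4.15 to 6.52 FPKM by group means, and KRTAP2-3, a keratin-associated protein gene, from 2.36 to 9.20 FPKM.

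Of 12 other pathway genes under the DU145 filter but above 0, 5 had groups that did not overlap, 4 lower and 1 higher in shPAX6, beside 13.1% of all 6998 such features. They are MAML3, DTX1, HES2 and LFNG, which were lower, and HEY2, which was higher, and they were singled out after their values were seen. LFNG, a fringe glycosyltransferase that modifies Notch receptors, was at 0.447 ± 0.0621 FPKM in shCON and 0.165 ± 0.0766 FPKM in shPAX6, and HES2 was at 0.176 ± 0.02 and 0.0262 ± 0.0365 FPKM (SD, n = 3 each). HEY2 was at 0.110 ± 0.0511 and 0.197 ± 0.0362 FPKM (SD, n = 3 each). In LNCaP, RBPJ came close to 2-fold, with 1269 and 597 counts (log2 ratio −0.90).

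Of 8 prostate epithelial markers, 6 were tested in DU145 and 1 passed: CDH1, encoding E-cadherin, fell from 6.14 ± 0.844 to 1.26 ± 0.526 FPKM (SD, n = 3 each; log2 fold change −2.28, adjusted p 0.0334, limma with Benjamini-Hochberg adjustment). Of 11 markers of other cell types, 2 were tested and 0 passed in limma, 1 of them with an unadjusted p under 0.05. The 4 leukocyte markers summed to 35.8 to 38.6 FPKM in shCON and 24.3 to 26.2 FPKM in shPAX6, all of it from CD68, a lysosomal gene that many cell types express. The 3 endothelial markers summed to no more than 0.119 FPKM and the 4 fibroblast markers to no more than 0.741 FPKM. In LNCaP, 5 of the 11 other markers had a mean of at least 1 CPM and 1 of these was past 2-fold, VWF, with 345 and 27 counts.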
